A study of Papio anubis with 6 samples.

Results

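The genes examined were 36 genes of glycolysis, glucose and lactate transport, 2,3-bisphosphoglycerate (2,3-BPG) synthesis and the pentose phosphate pathway. They were chosen by gene name in both comparison tables, which list 39023 genes each, and 34 of the 36 were listed under their own names. Counts were obtained in at least 1 library for 33 of them, and 24 had at least 100 reads over all 6 libraries. The cells were CD105+CD34-CD117+bRBC+ bone marrow cells of baboons, a sorted fraction enriched in proerythroblasts, the earliest recognizable red cell precursors. RN-1, an inhibitor of the histone demethylase LSD1, had been injected at 0.25 mg/kg/d. The samples formed 3 groups of 2, namely short-term RN-1 (3 d), long-term RN-1 (5 d a week for more than 265 d) and untreated controls. The same 2 baboons gave the short-term and the control samples. The long-term samples came from 2 different animals, so for that regimen the effects of treatment and of animal cannot be told apart. No age is given for any animal in the labels or the methods.

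Glycolysis converts glucose to pyruvate with a net gain of ATP. Mature red cells have no mitochondria and obtain their ATP in this way, and the pyruvate is turned to lactate and exported. A side branch makes 2,3-BPG, which lowers the oxygen affinity of hemoglobin. The pentose phosphate pathway takes glucose 6-phosphate and yields NADPH, which keeps glutathione reduced, and ribose 5-phosphate, from which nucleotides are made.

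Reads lay near the 3′ ends, with 1 fragment per transcript, so that counts scaled to library size (CPM) were not corrected for gene length. A count between genes still depends on how each gene's 3′ end is annotated, which was not tested, so the order of genes and the shares of isoenzymes given here describe counts in these tables and not amounts of transcript. The deposited tables hold a log2 fold change, a mean level and a p-value for each gene. The whole reads of each library were recovered from these values, and totalled 5118678 and 4345722 in the short-term libraries, 3561981 and 3230728 in the long-term libraries, and 4321364 and 3418285 in the control libraries. Which animal gave which library of a group cannot be read from the tables. The 2 values of a group are therefore given with the deeper library first, and nothing pairs a library of one group with one of another. The genes of the positive gates were present in every library, KIT (CD117) at 186 to 258 CPM and ENG (CD105) at 83.2 to 114 CPM. The erythroid transcription factor KLF1 was present at 634 to 945 CPM, and no reads were recovered for CD34, the negative gate. Of 9 proerythroblast markers, AHSP was lower in all RN-1 libraries (322 to 646 CPM) than in the controls (798.4 and 838.5 CPM). TAL1 was higher in all of them (58.3 to 101.5 CPM against 55.4 and 27.0 CPM), and the other markers of that list overlapped the controls. Whether genes without recovered reads were silent or missing from the annotation under their names was not tested. Mast cell and basophil markers (3 of 5 with reads, none recovered for CPA3 and MS4A2) summed to 96.4 and 21.1 CPM in the short-term libraries, 115 and 175 CPM in the long-term libraries, and 0.234 and 2.37 CPM in the controls. Monocyte and macrophage markers (8 of 10 with reads, none recovered for VSIG4 and LYZ) summed to 30.4 and 2.31 CPM, 10.4 and 32.6 CPM, and 1.64 and 0 CPM in the same order of groups. Both lists thus summed to more in every RN-1 library than in either control, and their part in the results that follow was not tested. In the shallower short-term library the monocyte and macrophage sum came from C1QC alone and lay close to that of the deeper control. CD68, of the same list, had 0.759 and 0 CPM in the short-term libraries and 1.40 and 0 CPM in the controls. Of the T and NK cell markers, CD2 alone had reads. It had 264 and 128 CPM in the short-term, 352 and 370 CPM in the long-term and 147 and 181 CPM in the control libraries. Both long-term libraries thus lay above the controls for CD2, and the short-term libraries overlapped them. Fewer cells of a type and less RNA per cell cannot be told apart in such data.

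In the control proerythroblasts the 3 highest mean levels among these genes were those of non-oxidative pentose phosphate enzymes. TALDO1 (transaldolase) had 920 and 978 CPM, RPIA (ribose 5-phosphate isomerase) 424 and 422 CPM, and TKT (transketolase) 274 and 339 CPM, while the other pentose phosphate genes, PGD, PGLS and RPE, ranked from 16 to 23. The levels of TALDO1 and RPIA did not overlap each other, nor did those of RPIA and TKT. HK1 (hexokinase 1, the first step of glycolysis) followed with 275 and 320 CPM, PKLR (the red cell and liver pyruvate kinase, the last step) with 232 and 304 CPM, PFKL (a subunit of phosphofructokinase) with 242 and 136 CPM, PGK1 (phosphoglycerate kinase 1) with 149 and 148 CPM and SLC16A1 (the lactate transporter MCT1) with 154 and 121 CPM. In the deeper control HK1 slightly exceeded TKT, at 1175 against 1172 reads. From TKT to SLC16A1 each gene overlapped the next one in this order. LDHB (a lactate dehydrogenase subunit) lay apart below these with 83.0 and 107 CPM, and BPGM, which makes 2,3-BPG, had 57.7 and 73.5 CPM. GAPDH, the glyceraldehyde phosphate dehydrogenase of lower glycolysis, had 67.1 and 63.2 CPM and overlapped BPGM. All 33 genes together took 0.33% and 0.298% of the reads in the short-term libraries, 0.304% and 0.28% in the long-term libraries, and 0.314% and 0.328% in the controls.

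Within families that have several isoenzymes, 1 gene carried nearly all reads at 3 steps. HK1 took at least 99.3% of the reads of HK1, HK2 and HK3 in every library. PKLR took at least 95.2% of the reads of PKLR and PKM, the pyruvate kinase gene of most other tissues. SLC2A3 (the glucose transporter GLUT3) took at least 95.6% of the reads of SLC2A3 and SLC2A1 (GLUT1), of which SLC2A1 had no more than 15 reads in any library. In human red cells GLUT1 is the main glucose transporter.

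After short-term RN-1, 0 of the 30 genes tested passed the threshold, an adjusted p under 0.05 by the Benjamini-Hochberg method over all genes of the table (edgeR p-values of the authors). Among all 16355 genes tested, 0.495% were called higher and 0.153% lower. At an unadjusted p under 0.05, 3 of the 30 genes were higher (PGD, SLC16A1 and HK1) and 0 were lower, against 4.26% higher and 2.85% lower of all genes. An added fit with limma-voom on the recovered reads likewise called 0 of 31 genes (0.0553% of all genes). Of the 24 genes with at least 100 reads, 4 had both short-term libraries above both controls and 8 had both below, where 19.0% and 18.0% of all genes with that many reads did so. The median log2 fold change of the 24 was 0.00, against 0.01 for all genes with that many reads, and 12 of 24 lay above 0.

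After long-term RN-1, 1 of the 33 genes tested was called lower, GAPDH, and 0 were called higher, where 0.663% of the 17942 genes of that table were called higher and 0.106% lower. At an unadjusted p under 0.05, 2 genes were higher (SLC2A3 and SLC16A1) and 4 were lower (GAPDH, RPIA, TKT and PGK1), against 3.59% and 1.82% of all genes. Limma-voom called 0 of 31 genes (0.111% of all genes). Of the 24 genes with at least 100 reads, 5 had both long-term libraries above both controls and 6 had both below, where 21.5% and 19.8% of all genes did so. Their median log2 fold change was -0.10, against 0.01 for all genes, and 11 of 24 lay above 0. With 2 libraries against 2, an exact permutation test of a single gene could not give a p below 0.333, so the p-values come from the fits across all genes. Both regimens were set against the same controls. The share of all genes whose RN-1 libraries lay beyond both controls in both regimens together was not computed.

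**Figure D1:**
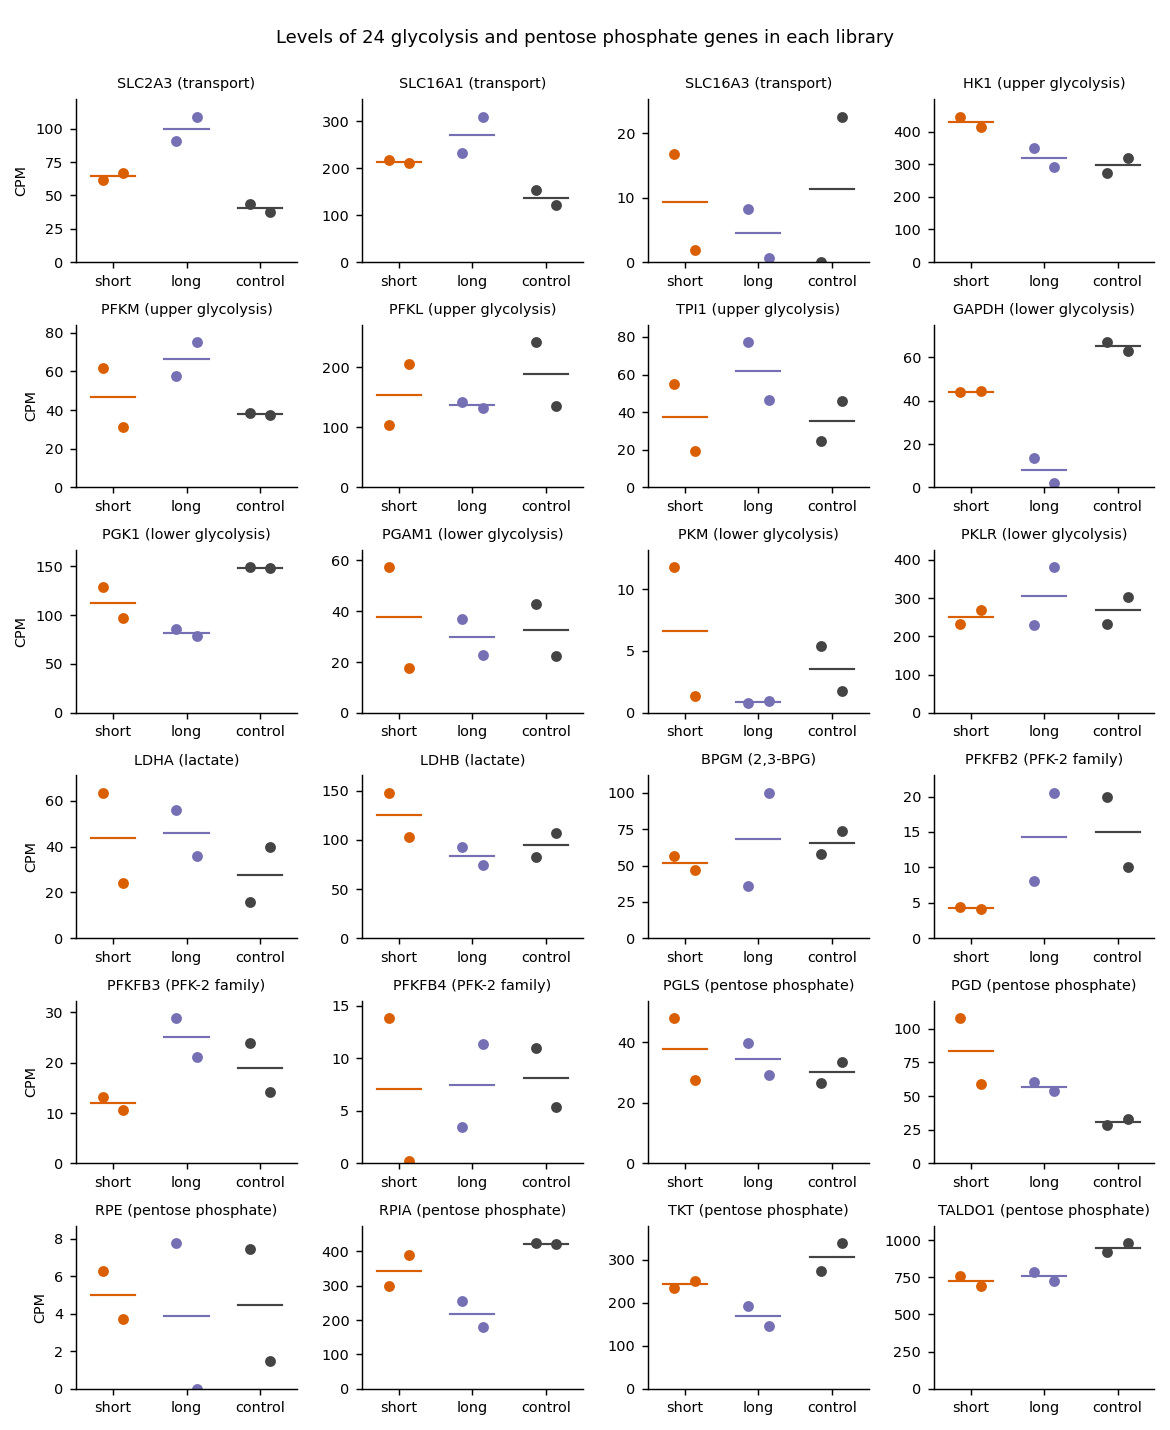
Level in CPM (axis from 0) of the 24 genes with at least 100 reads, 1 panel per gene. Points are single libraries, with the deeper one of each group on the left, and lines are the means of short-term RN-1, long-term RN-1 and control (n = 2 each). GAPDH had 13.6 and 2.21 CPM in the long-term libraries and 67.1 and 63.2 CPM in the controls, and PGD lay above both controls in all 4 RN-1 libraries.

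GAPDH had 51 and 7 reads in the long-term libraries and 287 and 213 reads in the controls. These counts corresponded to 13.6 and 2.21 CPM after long-term RN-1 and to 67.1 and 63.2 CPM in the controls. The 2 long-term libraries thus differed from each other, but both lay below the controls. The log2 fold change was -3.02 (SE 0.64, 95% interval -4.28 to -1.76), that is 12.3% of the control level (adjusted p = 0.000829, edgeR). In limma-voom the log2 fold change was -3.41 and the call was lost (adjusted p = 0.218). Without the deeper long-term library the log2 fold change in limma-voom was -4.79 (adjusted p = 0.856), and without the shallower one it was -2.25 (adjusted p = 0.652). After short-term RN-1, GAPDH had 44.0 and 44.4 CPM, below both controls (log2 fold change -0.56, 95% interval -1.34 to 0.23, adjusted p = 0.704). The genes next to GAPDH in the RefSeq annotation of Panubis1.0 were chosen after its value was seen. NCAPD2, a condensin subunit, had 364 and 440 CPM in the long-term libraries and 358 and 311 CPM in the controls. IFFO1, an intermediate filament protein, had 14.7 and 23.7 CPM in the long-term libraries and 10.5 and 14.5 CPM in the controls. GAPDH has many near-identical processed copies in primate genomes, between which reads may be divided, so its level is uncertain. Taking the mean level of the long-term table as the midpoint of both groups on the log scale would give GAPDH a control level of 106 CPM. That mean level is instead fitted over all libraries of the comparison, so 106 CPM is not an estimate of the control level. GAPDH was also the gene to which γ-globin transcripts were related in one of the RT-PCR assays of the study, which compared cell fractions. The effect of RN-1 on γ-globin was instead reported relative to γ- plus β-globin, after 3 d of treatment. Other genes, among them LYN and GATA2, were also measured by RT-PCR in RN-1 treated and untreated baboons. They were given as relative expression, and the text of the study names no reference gene for them.

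The remaining genes of lower glycolysis did not pass the threshold. PGK1, which makes the first ATP of the payoff phase, had 85.6 and 78.7 CPM in the long-term libraries and 149 and 148 CPM in the controls. Its groups did not overlap, and the log2 fold change of -0.86 (SE 0.35, 95% interval -1.55 to -0.16) did not pass the adjustment (adjusted p = 0.561). In the short-term libraries PGK1 had 129 and 97.2 CPM (log2 fold change -0.41, 95% interval -0.99 to 0.17, adjusted p = 0.704). PKLR had 232 and 268 CPM in the short-term libraries, 229 and 380 CPM in the long-term libraries, and 232 and 304 CPM in the controls, and the groups overlapped. Its log2 fold change was -0.09 (95% interval -0.59 to 0.41, adjusted p = 0.947) after short-term and 0.18 (95% interval -0.50 to 0.87, adjusted p = 1) after long-term RN-1. PGAM1 (phosphoglycerate mutase 1) had 57.3 and 17.8 CPM, 36.9 and 22.8 CPM, and 42.8 and 22.2 CPM in the same order, and the groups overlapped. PKM had 68 reads over the short-term, 6 over the long-term and 29 over the control libraries. Of the enolases, ENO1 had 33, 3 and 13 reads in these groups, and ENO2 and ENO3 had no more than 9 reads in any library. PGAM2, the muscle form of the mutase, had 17 reads in all, of which 15 came from 1 control library.

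Of the glucose and lactate transporters, SLC16A1 and SLC2A3 had higher levels in both treated groups, but neither passed the threshold. SLC16A1 had 218 and 211 CPM in the short-term libraries, 234 and 310 CPM in the long-term libraries, and 154 and 121 CPM in the controls. All 4 RN-1 libraries lay above both controls. Within 1 regimen, 19.0% (short-term) and 21.5% (long-term) of all genes with at least 100 reads did so. The log2 fold change of SLC16A1 was 0.65 after short-term RN-1 (SE 0.27, adjusted p = 0.509, edgeR) and 0.98 after long-term RN-1 (SE 0.34, adjusted p = 0.244). SLC2A3 had 61.9 and 66.9 CPM in the short-term, 91.2 and 109 CPM in the long-term, and 43.2 and 37.7 CPM in the control libraries. The groups again did not overlap. The log2 fold change of SLC2A3 was 0.67 (SE 0.41, adjusted p = 0.704) and 1.30 (SE 0.40, 95% interval 0.52 to 2.09, adjusted p = 0.114) in the short-term and long-term groups, and the long-term level was 2.47-fold that of the controls. SLC16A3 (the lactate exporter MCT4) had 88 and 8 reads, 31 and 2 reads, and 0 and 76 reads, so that 1 library set the level of each group. Summed over the 4 transporters the level was 300 and 280 CPM in the short-term, 333 and 422 CPM in the long-term and 198 and 182 CPM in the control libraries.

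**Figure D2:**
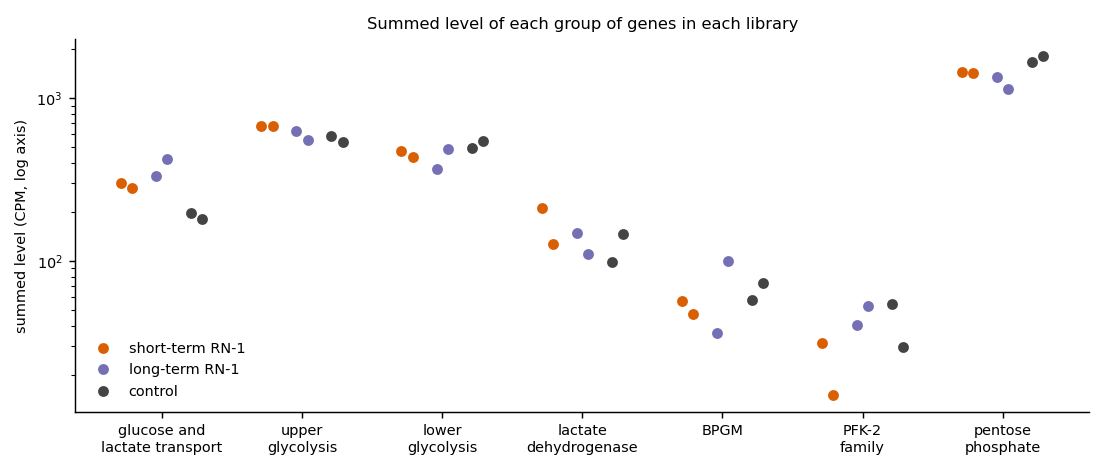
Summed level of the genes of each group (CPM, log axis) in every library of short-term RN-1, long-term RN-1 and control (n = 2 each). The transport sum was 280 CPM or more in the RN-1 libraries and at most 198 CPM in the controls, whereas the pentose phosphate sum was at most 1454 CPM in the RN-1 libraries and 1680 CPM or more in the controls. SLC16A1 and SLC2A3 made up most of the transport sum, and TALDO1, RPIA and TKT most of the pentose phosphate sum. None of these genes passed the threshold, and PGD, in the latter sum, was higher in the RN-1 libraries. How often sums of other genes would separate in this way was not computed.

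In upper glycolysis, HK1 had 446 and 415 CPM in the short-term libraries, 351 and 290 CPM in the long-term libraries, and 275 and 320 CPM in the controls. Both short-term libraries lay above the controls (log2 fold change 0.54, SE 0.24, adjusted p = 0.573), while the long-term libraries overlapped them (0.11, SE 0.32, adjusted p = 1). PFKL had 103 and 205 CPM, 142 and 132 CPM, and 242 and 136 CPM in the same order, and both RN-1 groups overlapped the controls (log2 fold change -0.32, SE 0.27, adjusted p = 0.743 for short-term, and -0.47, SE 0.36, adjusted p = 1 for long-term RN-1). PFKM, the muscle type subunit of phosphofructokinase, had 61.9 and 31.5 CPM, 57.8 and 75.3 CPM, and 38.6 and 37.4 CPM. Both long-term libraries were above the controls for PFKM (log2 fold change 0.81, 95% interval -0.06 to 1.67, adjusted p = 1). PFKM accounted for 35.7% and 13.3% of the phosphofructokinase reads in the short-term libraries, for 28.7% and 36.2% in the long-term libraries and for 13.7% and 21.5% in the controls. The 95% Wilson interval of the lower long-term share, 25.5% to 32.0%, lay above that of the higher control share, 18.4% to 25.1%. Such intervals treat reads as independent, although the libraries were amplified by PCR without molecular identifiers, and they leave out variation between animals. They may thus be too narrow, and they do not test a difference between groups. TPI1 (triosephosphate isomerase) had 55.2 and 19.2 CPM in the short-term, 77.3 and 46.5 CPM in the long-term and 24.8 and 46.0 CPM in the control libraries, and its log2 fold change after long-term RN-1 was 0.81 (95% interval -0.14 to 1.76, adjusted p = 1). HK2, HK3, PFKP and ALDOC (aldolase C) had at most 58 reads each over all libraries. ALDOC had 2 and 25 reads in the long-term libraries and 0 in the other 4.

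GPI (glucose phosphate isomerase) and ALDOA (aldolase A) were not listed under these names. The RefSeq table of Panubis1.0 gives GPI to the entry listed as LOC103880044, which is not counted among the genes above. That entry had 176 and 139 CPM in the short-term, 116 and 132 CPM in the long-term and 74.1 and 146 CPM in the control libraries. Its log2 fold change was 0.59 after short-term RN-1 (unadjusted p = 0.0492, adjusted p = 0.699, edgeR) and 0.17 after long-term RN-1 (adjusted p = 1).

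Lactate dehydrogenase is a tetramer of LDHA and LDHB subunits that interconverts pyruvate and lactate. LDHB had 148 and 103 CPM in the short-term, 92.6 and 74.0 CPM in the long-term and 83.0 and 107 CPM in the control libraries, and LDHA had 63.6 and 24.1 CPM, 56.2 and 36.1 CPM, and 15.7 and 39.7 CPM. The groups of both genes overlapped. For LDHB the log2 fold change was 0.39 (SE 0.31, adjusted p = 0.713) after short-term and -0.19 (SE 0.38, adjusted p = 1) after long-term RN-1. LDHA took 30.0% and 18.9% of the lactate dehydrogenase reads in the short-term libraries, 37.8% and 32.8% in the long-term libraries, and 15.9% and 27.1% in the controls. The long-term shares lay above the control shares, although the Wilson interval of the lower of them (28.0% to 37.9%) overlapped that of the higher control share (23.4% to 31.2%).

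BPGM had 56.7 and 47.2 CPM in the short-term libraries, 36.1 and 100 CPM in the long-term libraries and 57.7 and 73.5 CPM in the controls. The short-term libraries lay below both controls (log2 fold change -0.33, 95% interval -1.09 to 0.42, adjusted p = 0.792), and the 2 long-term libraries lay on either side of them (0.05, 95% interval -0.76 to 0.86, adjusted p = 1). The PFKFB genes encode the enzymes that set fructose 2,6-bisphosphate, the activator of phosphofructokinase. PFKFB2 had 4.36 and 4.17 CPM in the short-term, 8.03 and 20.6 CPM in the long-term and 19.9 and 10.1 CPM in the control libraries, with a log2 fold change of -1.72 after short-term RN-1 (95% interval -3.83 to 0.40, adjusted p = 0.704). PFKFB3 was likewise below both controls in the short-term libraries, at 13.3 and 10.7 CPM against 23.8 and 14.2 CPM (adjusted p = 0.803), and had 28.9 and 21.2 CPM in the long-term libraries. PFKFB4 had 73 and 1 reads in the short-term libraries, so that its level there rested on 1 library, and PFKFB1 was listed without a p-value.

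**Figure D3:**
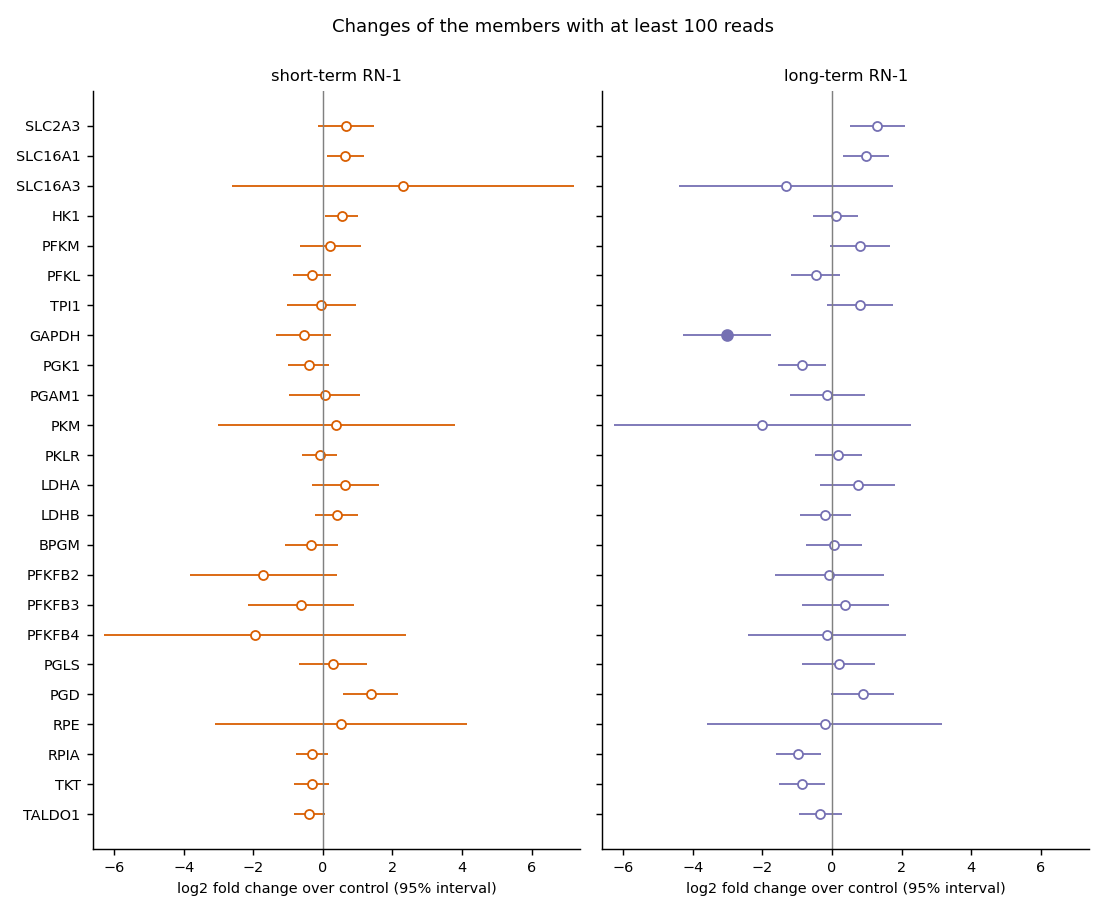
Log2 fold change of the 24 genes with at least 100 reads after short-term RN-1 (left) and long-term RN-1 (right) over control. Bars are 95% intervals back-calculated from the p-values of the authors, and filled points passed an adjusted p under 0.05. GAPDH after long-term RN-1, at -3.02, is the only filled point.

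Among the pentose phosphate genes, PGD on the one hand and RPIA, TKT and TALDO1 on the other lay on opposite sides of their control levels in the RN-1 libraries. PGD, which makes NADPH and ribulose 5-phosphate in the oxidative branch, had 569 and 254 reads in the short-term, 225 and 171 reads in the long-term and 122 and 112 reads in the control libraries. These were 108 and 58.8 CPM after short-term RN-1, 60.2 and 54.1 CPM after long-term RN-1, and 28.5 and 33.2 CPM in the controls. All 4 RN-1 libraries were above both controls. Within 1 regimen, 19.0% (short-term) and 21.5% (long-term) of all genes with at least 100 reads were so. The deeper short-term library had the highest level of PGD. The log2 fold change was 1.37 after short-term RN-1 (SE 0.40, 95% interval 0.59 to 2.15, 2.59-fold), just short of the threshold (adjusted p = 0.0793, edgeR). It was 0.89 after long-term RN-1 (SE 0.46, 95% interval -0.02 to 1.80, adjusted p = 0.969). In limma-voom the short-term log2 fold change of PGD was 1.41 (adjusted p = 0.544), and leaving out 1 library at a time moved it between 0.94 and 1.82.

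RPIA, TKT and TALDO1, of the non-oxidative branch, were below both controls in all RN-1 libraries. Within 1 regimen, 18.0% (short-term) and 19.8% (long-term) of all genes with at least 100 reads were so. RPIA had 299 and 390 CPM in the short-term, 256 and 179 CPM in the long-term and 424 and 422 CPM in the control libraries. Its log2 fold change after long-term RN-1 was -0.96 (SE 0.33, 51.4% of the control level, adjusted p = 0.237, edgeR), and -0.31 (SE 0.24, adjusted p = 0.704) after short-term RN-1. TKT had 235 and 252 CPM, 192 and 147 CPM, and 274 and 339 CPM in the same order of groups. Its log2 fold change was -0.86 (SE 0.33, adjusted p = 0.447) after long-term and -0.33 (SE 0.25, adjusted p = 0.704) after short-term RN-1. TALDO1 had 758 and 693 CPM, 787 and 725 CPM, and 920 and 978 CPM, which gave a log2 fold change of -0.33 (SE 0.31, adjusted p = 1) after long-term and of -0.39 (SE 0.22, adjusted p = 0.704) after short-term RN-1. None of the 3 passed the adjustment in either regimen. PGLS, the lactonase of the oxidative branch, had 48.0 and 27.5 CPM, 39.6 and 29.1 CPM, and 26.6 and 33.5 CPM, and overlapped the controls. RPE, an epimerase that also belongs to the non-oxidative branch, had 49, 29 and 37 reads per group and overlapped the controls too. The log2 fold change of RPE was 0.52 (SE 1.85) after short-term and -0.21 (SE 1.72) after long-term RN-1.

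PGD took a larger share of the 6 pentose phosphate transcripts in every RN-1 library. The share was 7.43% (569 of 7662 reads) and 4.13% (254 of 6158 reads) in the short-term libraries, 4.49% and 4.77% in the long-term libraries, and 1.70% and 1.84% in the controls. The lowest Wilson bound of an RN-1 library was 3.66% and the highest bound of a control was 2.21%. These bounds leave out variation between animals. The share does not depend on how the libraries were scaled. It is made of the same counts as the levels above, with RPIA, TKT and TALDO1 in its denominator, so it is not separate evidence for a change of PGD.

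**Figure D4:**
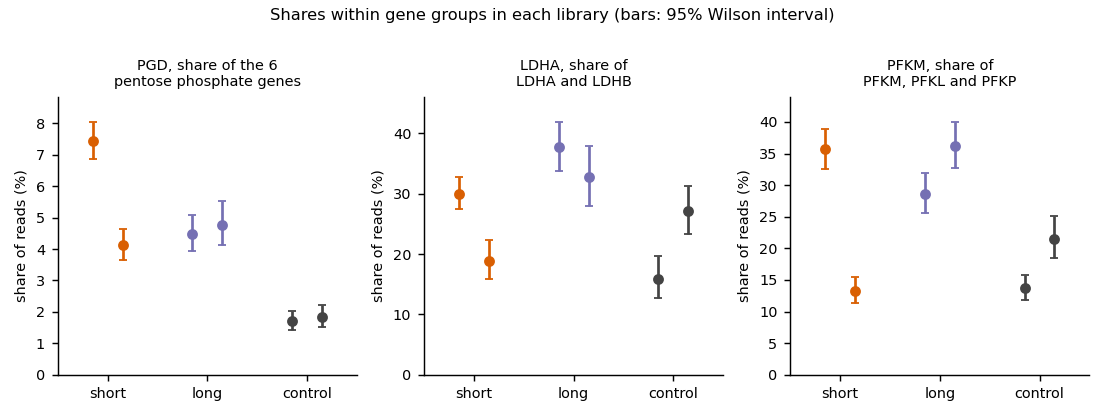
Share of reads (%, axis from 0) taken by PGD among the 6 pentose phosphate genes, by LDHA among LDHA and LDHB and by PFKM among the phosphofructokinase genes, in each library of short-term RN-1, long-term RN-1 and control. Bars are 95% Wilson intervals, which treat reads as independent and leave out variation between animals. The PGD share was 4.13% or more in the 4 RN-1 libraries and at most 1.84% in the controls.

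The regimens were compared by the difference of their log2 fold changes, long-term minus short-term. The tables average the control libraries differently, so that the controls do not cancel exactly, and the standard error adds the variances of both comparisons and counts that of the controls in each, which makes it too wide. Of 26 genes with at least 3 reads in each group, 0 differed at an adjusted p under 0.05, where 0.0173% of 11583 genes did so, and 1 differed at an unadjusted p under 0.05 against 0.768% of all genes. That gene was GAPDH, with a difference of -2.46 (SE 0.76, unadjusted p = 0.00113, adjusted p = 1). In limma-voom, where long-term and short-term libraries were contrasted directly, 0 of 31 genes differed (adjusted p = 0.895 for GAPDH). A lack of calls in these tests does not show that the regimens acted alike. For PGD the difference of the deposited log2 fold changes was -0.48 (SE 0.61), for SLC2A3 0.63 (SE 0.57), for RPIA -0.65 (SE 0.41) and for TKT -0.53 (SE 0.42).

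Among 108 other genes of sugar metabolism and its regulation 104 were found, 2 of them through their RefSeq names. Short-term RN-1 was tested for 80 of them and long-term RN-1 for 87, and BSG was the 1 gene called in each case, as higher, where 0.495% (short-term) and 0.663% (long-term) of all genes were called higher. At an unadjusted p under 0.05, 5 were higher and 1 lower after short-term RN-1, against 4.26% and 2.85% of all genes, and 8 were higher and 3 lower after long-term RN-1, against 3.59% and 1.82%. BSG encodes basigin, a surface glycoprotein that MCT1 needs to reach the cell membrane in mammals. It had 1024 and 1089 CPM in the short-term, 993 and 1388 CPM in the long-term and 605 and 384 CPM in the control libraries. All 4 RN-1 libraries were above both controls, though the controls differed from each other. The log2 fold change of BSG was 1.13 after short-term RN-1 (SE 0.23, adjusted p = 0.000322, edgeR) and 1.26 after long-term RN-1 (SE 0.34, adjusted p = 0.0317). In limma-voom the short-term call was lost (adjusted p = 0.104) and the long-term call was kept (adjusted p = 0.0485).

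None of the other genes on that list passed the adjustment. MINPP1, which can remove a phosphate from 2,3-BPG, had 523 and 504 CPM in the short-term, 610 and 679 CPM in the long-term and 344 and 390 CPM in the control libraries (adjusted p = 0.651 and 0.447 in the 2 regimens). PYGL, a glycogen phosphorylase, had 41.2 and 22.0 CPM, 22.7 and 25.9 CPM, and 2.34 and 10.7 CPM in the same order (adjusted p = 0.0764 and 0.672). EGLN1, an oxygen-sensing prolyl hydroxylase, had 25.4 and 44.9 CPM in the long-term libraries and 6.54 and 9.19 CPM in the controls (adjusted p = 0.131). IDH1, an NADPH-producing isocitrate dehydrogenase, had 122 and 50.0 CPM in the long-term libraries and 29.2 and 35.6 CPM in the controls (adjusted p = 0.209), and PCK2, the mitochondrial phosphoenolpyruvate carboxykinase, had 37.2 and 19.6 CPM against 2.10 and 11.6 CPM (adjusted p = 0.464). MYC had 78.4 and 48.7 CPM against 42.8 and 22.8 CPM (adjusted p = 0.919), and PHKA2, a phosphorylase kinase subunit, 33.4 and 37.0 CPM against 17.3 and 9.49 CPM (adjusted p = 0.696). Lower in the long-term libraries by unadjusted p were PDK3, a kinase that inhibits pyruvate dehydrogenase, with 29.2 and 18.0 CPM against 57.0 and 71.8 CPM in the controls (adjusted p = 0.204), PMM1, a phosphomannomutase, with 36.1 and 47.1 CPM against 50.5 and 111 CPM (adjusted p = 0.839), and PRDX2, an abundant peroxiredoxin of red cells, with 46.3 and 66.4 CPM against 76.7 and 121 CPM (adjusted p = 0.907). After short-term RN-1 CAT (catalase) had 184 and 247 CPM against 356 and 287 CPM in the controls (adjusted p = 0.535), and H6PD, a dehydrogenase of the endoplasmic reticulum, had 15.9 and 10.7 CPM against 3.04 and 0 CPM (adjusted p = 0.431). PDPR, a regulatory subunit of pyruvate dehydrogenase phosphatase, had 1.14 and 3.93 CPM in the short-term libraries and no reads in the controls (adjusted p = 0.651).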

How the data were processed

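RNA of sorted proerythroblasts (2 short-term RN-1, 2 long-term RN-1 and 2 control samples, grouped by the sample labels) was sequenced with a strand-specific 3′ kit. Alignment to the baboon genome Panu_2.0 (BWA MEM), counting (featureCounts) and testing (edgeR) were done by the authors, who controlled for the animal in the short-term comparison and compared the long-term samples directly with the controls; that the long-term table comes from a pair-wise exact test was assumed. Tool versions were not given in the sources used here. Log2 fold changes and mean log2 CPM deposited by the authors, and their p-values and q-values, are the values used, since the genes examined were defined as entries of these comparison tables. Benjamini-Hochberg adjustment was repeated over each table and matched the deposited q-values within 1.6e-14.

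Whole reads were recovered from the deposited log2 values: in the short-term table the group means of log2 CPM (prior count 0.25) fix the product of 2 whole numbers, and in the long-term table the mean level (prior count 2, dispersion 0.05) fixes the remaining 2. Reads came out whole for 100% of 16353 and 17940 genes (relative tolerance 1e-11), and CPM use the recovered effective library sizes. For 8 short-term and 1 long-term gene a second solution lay within the tolerance, and the closer one was taken. The short-term log2 fold change is one of geometric means. Rows with a repeated name (2 in each table) were left out.

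Standard errors and 95% intervals were back-calculated from fold change and p; for p above 0.8, the median of the 101 genes nearest in level was used. limma 3.58.1 (R 4.3.3; voom, at least 10 reads, no animal term) was fitted to the recovered reads; this fit and its left-out libraries were chosen after seeing the data. It called 8 (short-term) and 16 (long-term) of 14466 genes. Recovery, limma-voom and the test between regimens were tested on simulated data. Alternatives were thresholds of 0.01 and 0.1, a fold change minimum, level minimums and the Benjamini-Yekutieli method. The genes and lists were chosen with earlier results of these data known. Genes with an adjusted or unadjusted p under 0.05 and the 10 with the highest control level are given in full, the others by level or count. Some items are not reported here. Each sample of a group came from a different animal. No sequences were used here.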

Additional observations from a re-analysis of the deposited data

How the results depend on the processing

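For the genes examined, of which 30 (short-term) and 33 (long-term) were tested, the short-term count of 0 became 1 (PGD) at a threshold of 0.1 and stayed 0 at a threshold of 0.01, with a log2 fold change of at least 1, with minimums of 0 or 2 for the mean log2 CPM, and by Benjamini-Yekutieli. The long-term count of 1 (GAPDH) was the same under all of these and 0 in limma-voom. Over all genes, the short-term count of 106 was 61 at a threshold of 0.01, 52 by Benjamini-Yekutieli and 8 in limma-voom, and the long-term count of 138 was 73 by Benjamini-Yekutieli and 16 in limma-voom. Among the other genes of sugar metabolism, the short-term count of 1 (BSG) was 2 at a threshold of 0.1, with PYGL, and 0 in limma-voom, and the long-term count of 1 (BSG) was 0 at a threshold of 0.01 and by Benjamini-Yekutieli. The test between regimens called 0 of these genes under each alternative. Total reads in place of effective library sizes left the counts of genes with both RN-1 libraries above or below both controls within 1.5 times.

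Limma-voom used no replicate block, so that the short-term comparison was there unpaired, and called 0 of the 31 genes fitted in either regimen. The recovered libraries carry no animal, and a fit with the animal as a block could not be made here. Leaving out 1 library at a time, with the lone library of a group assumed to vary like the others, limma-voom called 0 of these 31 genes and 0 of the other sugar metabolism genes in both regimens, and over all genes 0 (short-term) and 0 to 1 (long-term). These fits hold fewer samples. The log2 fold change of GAPDH after long-term RN-1 stayed between -4.79 and -2.25 and that of BSG between 0.80 and 1.46 (short-term) and between 0.95 and 1.60 (long-term). The control levels of GAPDH, PGK1, SLC2A3 and RPIA read straight from the long-term table (106, 156, 45.1 and 448 CPM) were beyond the spread of the recovered controls. That reading takes the fitted mean level as the midpoint of both groups on the log scale, which it is not. The recovered levels are therefore the ones used.

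Low counts limit what can be said of 9 of the genes, which had 6 to 58 reads over all libraries. Whether low expression, depth or the annotation of their 3′ ends set these counts was not tested. The motif search planned for promoters was not run.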
